A study of Mus musculus with 9 samples.

Results

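Liver gene expression after early-life pulsed antibiotic treatment (PAT) with tylosin was compared with that of untreated control mice, gene by gene. Each gene was represented by the brightest of its probe sets with a single gene symbol, judged by the mean over the 9 arrays of the series, and the genes described are the 7524 of 18193 whose mean log2 value was over 6. Tylosin, a macrolide used in animals, was given as 0.333 mg/ml in drinking water, for 50 mg per kg of body mass each day, in 3 pulses on days 10 to 15, 28 to 31 and 37 to 40 of life. Control mice drank untreated water. The study describes untreated water as acidified and the antibiotics as dissolved in distilled deionized water, so the water may have differed as well. Another 3 mice received amoxicillin, a beta-lactam, in the same pulses at 0.167 mg/ml for 25 mg per kg each day. All were female C57BL/6J mice, switched to a high-fat diet after the last pulse, and livers were taken months later, at 22 weeks by the description of the study and 24 weeks by the sample labels. Each group held 3 mice, with 1 Affymetrix array for each liver. Littermates shared a treatment and a cage, and the litter of each array is not given. The replicates carry numbers only, so p-values measure the spread between these samples.

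The liver makes bile acids from cholesterol, clears drugs and hormones through cytochrome P450 enzymes, conjugating enzymes and solute carriers, and secretes most plasma proteins through a large endoplasmic reticulum. Chaperones of that compartment rise with its folding load through the unfolded protein response, while cytosolic heat shock proteins follow protein damage. Resident macrophages, the Kupffer cells, line the sinusoids and meet bacterial products that leave the gut, and in bulk tissue fewer cells of a type and less RNA per cell cannot be told apart.

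The arrays carried the signal of hepatocytes at near equal levels. Albumin (Alb) was 14.65, 14.68 and 14.71 on the log2 scale in the control arrays, listed by replicate number here and below, and 14.65, 14.64 and 14.69 in the tylosin arrays. The summed level of 10 hepatocyte markers, as log2 of the sum of linear values, was 17.21 to 17.23 in control mice and 17.22 to 17.26 with tylosin. Alb lay at the top of the deposited values, which ended at 14.71, and the sum is weighted to bright genes. Such values do not measure the share of hepatocytes. The mean of the 10 markers, as a log2 difference from the control mean, was -0.06 to 0.04 in the control arrays and -0.0015, 0.08 and 0.02 with tylosin. Of 8 cholangiocyte markers on the array, 0 had a mean over 6.

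Tylosin replicate 3 stood apart in macrophage genes. Cd163, the haemoglobin scavenger receptor of resident macrophages, was 8.35, 7.83 and 4.75 in the tylosin arrays and 7.52 to 7.94 in control mice. Marco, a scavenger receptor for bacteria, was 6.24, 6.57 and 10.95, against 5.81 to 8.26. Among 13 Kupffer cell markers, Marco, Adgre1, Timd4 and Cd5l were higher in that array than in the other 8 arrays, whereas Cd163, Clec4f, Vsig4 and Folr2 were lower. The summed level of these 13 markers was 13.20 to 13.67 in control mice, and 13.57, 13.42 and 13.84 with tylosin. That array was also high in Saa3, an acute phase protein made by macrophages and hepatocytes, at 9.79 against 6.96 and 7.03 in the other tylosin arrays, and in Hmox1, which degrades haem, at 8.50 against 6.31 and 6.87. It was low in Slco1a1, a sex-dependent organic anion transporter, at 4.37 against 5.97 and 6.93. Saa1, the main circulating acute phase protein of the mouse, was 11.01 in tylosin replicate 3 and 11.55 in control replicate 3, and 8.22 to 8.79 in the other arrays of both groups. Tylosin replicate 2 stood apart from the control and other tylosin arrays in some genes of other tissues, though amoxicillin replicate 1 was like it in several marker lists. The summed level of smooth muscle markers was 9.63 in tylosin replicate 2 and 9.44 in amoxicillin replicate 1, against 7.85 to 8.17 in all other arrays. That of cholangiocyte markers was 8.18 and 8.66, against 7.23 to 7.55, and that of pancreatic acinar markers 8.87 and 9.41, against 8.62 to 8.79. The summed level of 18 intestinal markers did not set tylosin replicate 2 apart. It was 13.03, against 12.82 to 13.09 in control mice and 12.41 and 13.34 in the other tylosin arrays. Zg16, a lectin of goblet cells, was 8.41 in tylosin replicate 2 and 6.07 and 5.67 in the other tylosin arrays. Acta2, the actin of smooth muscle, was 8.14 in tylosin replicate 2 against 5.41 and 5.51. Results below are therefore given with and without tylosin replicate 3 where its values decide them.

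**Figure D1:**
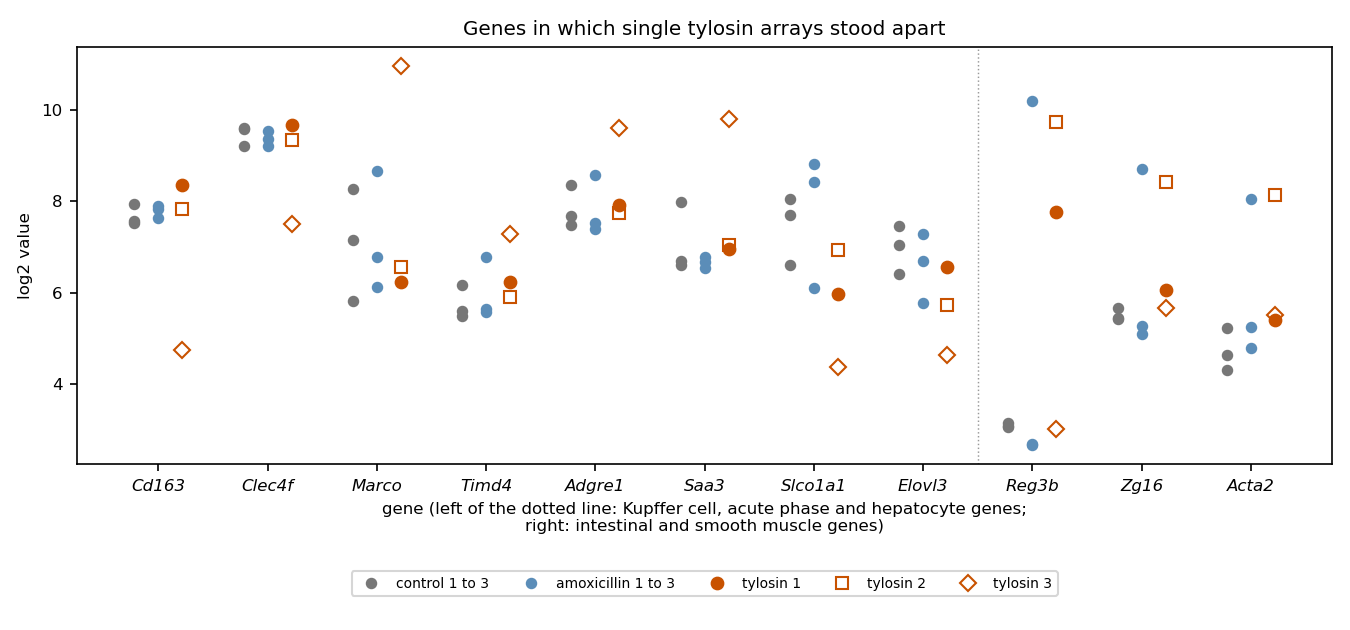
Log2 value (vertical axis) of 11 genes in each of the 9 arrays, 1 point per array, with control arrays in grey, amoxicillin arrays in blue and tylosin replicates 1, 2 and 3 in orange with separate symbols. Tylosin 3 lies at 4.75 for Cd163 and 10.95 for Marco, and tylosin 2 at 9.72 for Reg3b, an intestinal lectin, and 8.14 for Acta2, each apart from the control arrays.

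A gene was called with an unadjusted P under 0.01 from limma and a log2 fold change over 0.5 in either direction, and such genes are said to rise or fall. With tylosin, 127 genes rose, which is 1.69% of the 7524, and 23 fell, which is 0.306%. The largest rise was that of Ccn2, a matrix protein that responds to mechanical and TGF beta signals, at 2.54-fold, and the largest fall that of Hspb1, a small heat shock protein, at 2.33-fold. The change exceeded 2-fold in 5 of the genes that rose and 1 that fell. No gene passed an adjusted p of 0.05 by limma with Benjamini-Hochberg adjustment (0 genes, against 1366 at an unadjusted P under 0.05), and the adjusted p of the called genes was 0.18 to 0.23. All 3 tylosin arrays lay above all 3 control arrays in 1083 of the 7524 genes (14.4%) and below them in 342 (4.55%). Among called genes the arrays were separated in 117 of 127 that rose and 20 of 23 that fell, counts that the call itself favours.

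The excess of rises depended on scaling. The median log2 fold change of all 7524 genes was 0.07 with the deposited values, and 66.1% of genes were above 0. Counts over lists below are to be read beside this share and those of called and separated genes. Of the calls, 84.7% were rises with the deposited values, 94.1% when the medians of the arrays were set equal (206 rises and 13 falls) and 46.8% after quantile normalization (51 and 58), which moved the median of all genes to -0.005. All 51 of the rises left after quantile normalization were among the 127, and all 23 falls stayed called under it.

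**Figure D2:**
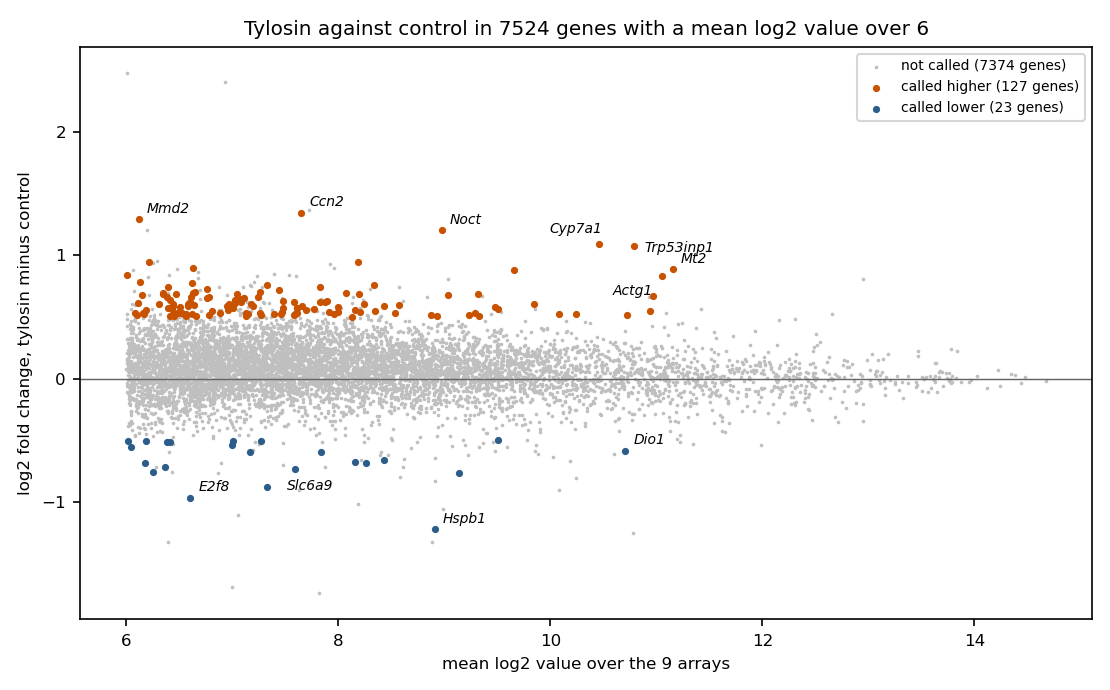
Log2 fold change of tylosin against control (vertical axis) by mean log2 value over the 9 arrays (horizontal axis) for 7524 genes, 1 point per gene, with 127 called higher in orange and 23 called lower in blue. Called genes lie more at lower levels, with a median level of 7.18 for rises and 7.17 for falls, against 7.81 for all genes over 6. A few uncalled genes lie farther from 0, such as Jchain at 2.48.

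Hspb1, which protects the cytoskeleton and other proteins under stress, fell with tylosin. It was 9.38, 9.81 and 9.88 in control mice and 8.28, 8.55 and 8.58 with tylosin, with no overlap. Its log2 fold change was -1.22 (standard error, SE, 0.19, limma adjusted p = 0.18), it was -1.27 without tylosin replicate 3, and the call held with any 1 of the 6 arrays left out. A dimmer probe set of Hspb1 gave -1.38 and was called too. Of 16 cytosolic heat shock genes over 6, Hspb1 alone was called, 11 were below 0, and the list's median was -0.19, beside 0.07 over all genes. Hspa1b, the inducible member of the HSP70 family, was 11.25, 11.28 and 11.29 in control mice and 9.85, 11.26 and 11.74 with tylosin, so that only tylosin replicate 1 was low. Since the Hspa1a and Hspa1b transcripts hardly differ, this probe set may not separate them. Stip1, which links HSP70 to HSP90, had a log2 fold change of -0.45 and was called without tylosin replicate 3, at -0.57.

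Genes of endoplasmic reticulum folding were lower with tylosin in most cases, and 2 of 22 fell, beside 0.306% of all genes. Hyou1, a large chaperone of the compartment, was 9.04, 9.88 and 9.99 in control mice and 8.63, 8.85 and 9.15 with tylosin. Tylosin replicate 3 lay just above control replicate 1, which was the lowest control array. Hyou1 thus fell by 0.77 on the log2 scale (SE 0.22, limma adjusted p = 0.21). Derl3, which moves misfolded proteins out for degradation and is also rich in plasma cells, was 6.17, 6.64 and 7.11 against 5.66, 5.80 and 6.20, a difference of -0.75 on the log2 scale (SE 0.23, adjusted p = 0.22, limma). Each of these calls was lost without control replicate 2 or 3, or without tylosin replicate 1 or 2, and Hyou1 was -0.53 without a call when its 3 probe sets were averaged. Over the list 19 of 22 genes were below 0, beside 2551 of 7524 over all genes. The list's median was -0.29, or -0.39 without tylosin replicate 3, beside 0.07 and 0.10 over all genes. Of the 22 genes 1 had all tylosin arrays below all control arrays, a share near the 4.55% of all genes. The mean of the list, as a log2 difference from the control mean, was -0.43, 0.14 and 0.30 in the control arrays and -0.52, -0.34 and -0.13 with tylosin, so that control replicate 1 lay below tylosin replicates 2 and 3. The list's median stayed below 0 with equal medians (-0.24) and after quantile normalization (-0.32). The uncalled Creld2 and Sdf2l1 were at -1.06 and -0.90, and Creld2, a folding factor of the compartment, was called without tylosin replicate 3 at -1.35. Control replicate 1 was the lowest control array in Hyou1, Derl3, Creld2, Manf and Calr, at 8.89 for Creld2 against 10.01 and 10.69 in control replicates 2 and 3.

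Some promoters of this list hold a motif whose search did not use the expression values. The list was drawn up from genes of folding and stress in this compartment, which favours a high share. That share is thus a description of the list and not a result of treatment. The endoplasmic reticulum stress element, searched as CCAAT and CCACG with 9 bases between on either strand of the window from 250 bases before to 50 after each RefSeq gene start, was found in 8 of the 19 list genes with a promoter in the table (42.1%). It was found in 0.226% of genes over 6 that had a promoter and in 0.119% of all windows. The 4 windows below, on GRCm38.p6, are shown for the genes with the element whose log2 fold changes were lowest and for Hspa5, the main chaperone of the compartment. They read 5′ to 3′ on the strand of the gene, with the element in capitals, and the first 3 carry it in reverse.
Creld2 (chr15:88819495-88819563, plus strand): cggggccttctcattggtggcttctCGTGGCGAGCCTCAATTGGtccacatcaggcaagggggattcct
Derl3 (chr10:75893217-75893285, plus strand): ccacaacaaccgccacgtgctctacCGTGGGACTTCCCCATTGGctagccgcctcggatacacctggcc
Calr (chr8:84847050-84847118, minus strand): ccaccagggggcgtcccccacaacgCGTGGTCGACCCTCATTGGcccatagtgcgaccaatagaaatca
Hspa5 (chr2:34772000-34772068, plus strand): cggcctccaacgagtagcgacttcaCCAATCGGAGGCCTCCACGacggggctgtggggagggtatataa
The log2 fold changes of these 4 genes with tylosin were -1.06, -0.75, -0.49 and -0.24. The median of the 8 genes with the element was -0.32 and that of the 11 without it was -0.26, so the element did not mark off the genes that were lowest. A matching search for the heat shock element, as GAA, TTC and GAA with 2 bases between, found it in 4 of 14 heat shock genes with a promoter (28.6%), against 0.614% of genes over 6, and not in that of Hspb1. The heat shock list was also drawn up by function.

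Cyp7a1, the hydroxylase whose step limits the rate at which cholesterol becomes bile acid, rose with tylosin. It was 10.35, 9.55 and 9.91 in control mice and 10.82, 11.25 and 11.02 with tylosin, with no overlap. The log2 fold change was 1.09 (SE 0.20, limma adjusted p = 0.18) and 1.10 without tylosin replicate 3, and the call held with any 1 array left out. A dimmer probe set of the gene gave 1.06 and was also called. The other 13 genes of bile acid synthesis over 6 were not called. Cyp27a1 and Cyp7b1 of the alternative pathway had log2 fold changes of -0.34 and -0.22, and the list's median was -0.04. None of 17 genes of bile acid transport and FXR signalling was called (0 of 17, median 0.01).

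Lpl, the lipase that releases fatty acids from circulating triglyceride, was 7.59, 8.04 and 7.49 in control mice and 8.46, 8.25 and 9.25 with tylosin, a log2 difference of 0.95 (SE 0.25, limma adjusted p = 0.19). Tylosin replicate 3 was the highest, and without it the log2 fold change was 0.65 and still called. The call of Lpl was lost without control replicate 1 or 3, and at 0.75 with both of its probe sets averaged. Acsf2, a mitochondrial acyl-CoA synthetase, fell from 7.29, 7.36 and 7.50 to 6.88, 6.62 and 7.02, and of the 6 fits with an array left out it kept its call in that without tylosin replicate 3. Dio1, the deiodinase that activates thyroid hormone in the liver, fell from 10.82 to 11.20 across the control arrays to 10.28, 10.40 and 10.59, or -0.58 as a log2 fold change (SE 0.13, with an adjusted p of 0.18 in limma), and lost its call without control replicate 3.
The wider lipid lists held few calls. No gene was called among 21 of cholesterol synthesis and uptake, 18 of fatty acid synthesis, 25 of triglyceride synthesis and lipid droplets, and 28 of fatty acid oxidation. In the cholesterol list 17 of 21 genes were below 0, with a median of -0.26, or -0.11 without tylosin replicate 3. Sqle, which commits squalene to sterols, shows the spread behind that median, at 8.96, 7.99 and 6.79 in control mice and 7.85, 6.95 and 6.79 with tylosin. Srebf1, a transcription factor of lipid synthesis, was 8.38, 8.31 and 8.58 against 9.01, 8.72 and 8.81, separated but with a log2 fold change of 0.42, under the threshold.

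Genes that respond within minutes to hours to growth and stress signals formed the list with the highest median among the 29 pathway lists, 0.36, or 0.18 without tylosin replicate 3. Some lists of cell type markers, each with 6 or fewer genes over 6, had higher medians, such as 0.49 for recruited macrophages and 0.93 for B and plasma cells. Without tylosin replicate 3 the splicing list, at 0.25, had the highest median of the 29 pathway lists. Of the 20 growth and stress genes over 6, 3 rose and 16 were above 0, beside 1.69% and 66.1% of all genes. Trp53inp1, a stress protein under p53 that acts in autophagy, was 10.44, 9.89 and 10.14 in control mice and 11.80, 11.32 and 10.59 with tylosin, a difference of 1.08 on the log2 scale (SE 0.29, adjusted p = 0.20, limma). Tylosin replicate 3 lay nearest to control mice. The call of Trp53inp1 was lost without control replicate 2 or 3 or tylosin replicate 1 or 2, and its log2 fold change was 0.66 without a call when both of its probe sets were averaged. Klf2, a transcription factor of quiescent endothelium and lymphocytes, was 7.0, 6.82 and 6.98 against 7.81, 7.75 and 7.37, a log2 fold change of 0.70 that held with any 1 array left out. Dusp1, a phosphatase that switches off MAP kinases, was 8.82, 8.57 and 9.02 against 9.38, 9.77 and 9.29, a log2 fold change of 0.68 whose call was lost without control replicate 1 or 2 or tylosin replicate 2. Myc and Btg2 were at 0.68 and 0.55 without a call, and Btg2 was 8.45 in tylosin replicate 3 against 6.96 and 7.38 in the other 2.
Other signalling genes outside the list also rose. Jdp2, a repressor of the AP-1 family, was 5.50, 5.36 and 5.90 in control mice and 6.59, 6.14 and 6.56 with tylosin. All of its control values were under 6, so it passed the limit on the mean only through arrays of treated mice. The difference of 0.84 on the log2 scale held with any 1 array left out but was 0.32 without a call when both of its probe sets were averaged. Pim3, a serine/threonine kinase, was 9.55, 8.69 and 9.51 against 10.25, 10.41 and 9.71, a log2 fold change of 0.88. Its call was lost without control replicate 2 (0.60) or tylosin replicate 1 or 2, and at 0.49 with its 3 probe sets averaged. Noct, a rhythmic phosphatase of NADP(H), was 8.66, 7.65 and 9.01 against 9.59, 9.46 and 9.88, a log2 difference of 1.20 (SE 0.36, limma adjusted p = 0.22). Its call was kept in 1 of the 6 fits with an array left out, and control replicate 2 was its lowest array. Noct was the only gene called among 13 of the circadian clock, in which Dbp, a clock output gene, ranged from 5.24 to 8.89 within the control group.

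The cAMP response element TGACGTCA, which recruits CREB and related factors, was found in the promoters of 4 of 97 genes that rose (4.12%) and 1 of 19 that fell (5.26%), beside 3.62% of genes over 6 and 1.79% of all windows on either strand. The shares of called genes were near that of all genes over 6. Dusp1 is shown as a gene that rose and Slc25a25, a mitochondrial carrier of ATP-Mg and phosphate, as one that fell, with the element in capitals.
Dusp1 (chr17:26508583-26508640, minus strand): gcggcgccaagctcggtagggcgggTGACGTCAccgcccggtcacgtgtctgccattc
Slc25a25 (chr2:32424184-32424241, minus strand): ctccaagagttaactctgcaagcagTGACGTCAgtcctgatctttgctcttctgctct
Both hold the same letters, with 135 and 142 bases between the element and the start of the gene, and changed in opposite directions.

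Of 28 genes of the actin cytoskeleton and cell movement, 4 rose, beside 1.69% of all genes. They include Ccn2, a matrix protein that the list holds beside the actin genes. Ccn2 was 7.38, 6.05 and 6.88 in control mice and 7.81, 7.97 and 8.57 with tylosin, or 1.35 as a log2 fold change (SE 0.33, with an adjusted p of 0.19 in limma). Tylosin replicate 3 was the highest, and without it the log2 fold change of 1.12 was no longer called. Actg1, cytoplasmic gamma actin, was 10.58, 10.66 and 10.63 against 11.30, 10.95 and 12.11, a log2 fold change of 0.83 that was 0.50 and just called without tylosin replicate 3 and lost its call without any 1 control array. Actr3, a subunit of the Arp2/3 complex that branches actin filaments, was 9.43, 9.58 and 9.53 against 9.98, 10.11 and 10.27. Rhob, an endosomal GTPase of actin dynamics, was 7.32, 7.12 and 7.28 against 7.80, 7.69 and 7.97. Both Actr3 and Rhob, at 0.61 and 0.57, held with any 1 array left out, although Actr3 came to 0.496 without a call when its 3 probe sets were averaged, and Rhob to 0.47 after quantile normalization. The list's median was 0.17 with all arrays and 0.01 without tylosin replicate 3, so its shift over all members rested on that array. Vasp, an actin filament elongation factor at 8.21 in tylosin replicate 3 and 6.91 to 6.99 in the other 2, is an example.
Of the matrix list, which shares Ccn2, Lama5 was the 1 gene of 21 to fall. It encodes a laminin chain of basement membranes and was 6.86, 6.63 and 6.97 against 5.84, 5.90 and 6.56, with tylosin replicate 3 close to control mice. Its call was lost without control replicate 1 or 3 or tylosin replicate 1 or 2, and at -0.41 with its 3 probe sets averaged.

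**Figure D3:**
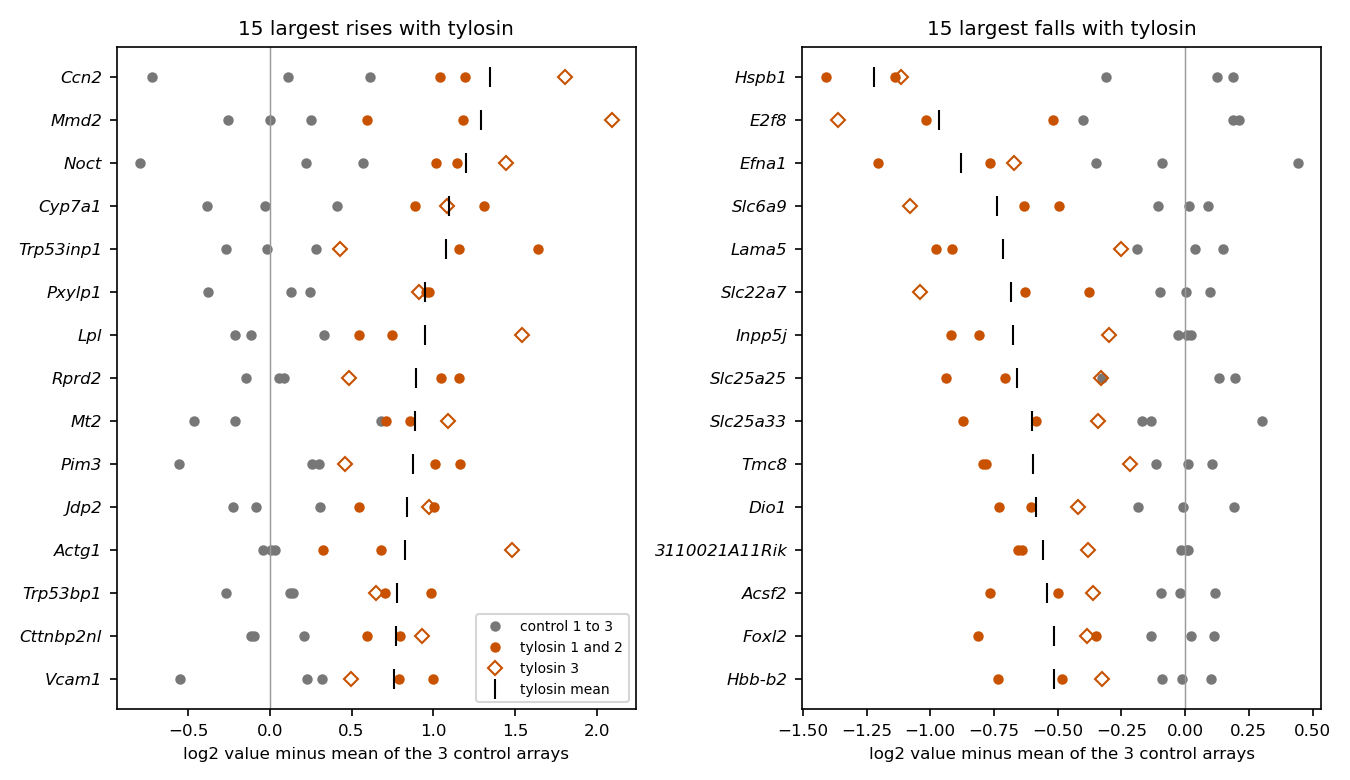
Log2 value of each array minus the mean of the 3 control arrays (horizontal axis) for the 15 largest rises (left) and 15 largest falls (right) among called genes with separated arrays, with control arrays as grey points, tylosin 1 and 2 as filled points, tylosin 3 as open diamonds and the tylosin mean as a bar. Tylosin 3 is the farthest array for Ccn2, Mmd2, Actg1 and E2f8 and the nearest for Trp53inp1, Rprd2, Lama5 and Slc25a25.

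Of 157 solute carriers over 6, by their symbols, 2 rose (1.27%) and 5 fell (3.18%), beside 1.69% and 0.306% of all genes. The rises were those of Slc25a4 and Slc25a12, mitochondrial carriers of ADP and ATP and of aspartate and glutamate, at log2 fold changes of 0.66 and 0.51. The falls were Slc49a4, at -0.51, and 4 members of a list of 33 hepatic carriers that does not hold Slc25a4 or Slc25a12. Slc6a9, a glycine transporter, was 7.84, 7.97 and 8.04 in control mice and 7.32, 7.45 and 6.87 with tylosin, a difference of -0.74 on the log2 scale (SE 0.17, adjusted p = 0.19, limma) that held with any 1 array left out. Slc22a7, an organic anion transporter of the sinusoidal membrane, was 8.41, 8.30 and 8.50 against 7.78, 8.03 and 7.36, a log2 fold change of -0.68 that was -0.50 and not called without tylosin replicate 3, and kept its call in 1 of the 6 fits with an array left out. Slc25a25 was 9.11, 9.17 and 8.65 against 8.04, 8.27 and 8.65, so that the highest tylosin array lay at the lowest control array. Its call was lost without control replicate 1 or 2 or tylosin replicate 1 or 2, and at -0.34 with its 3 probe sets averaged. Slc25a33, a mitochondrial carrier of pyrimidine nucleotides, was 8.43, 7.99 and 7.96 against 7.54, 7.26 and 7.78, and lost its call without control replicate 1 or tylosin replicate 2. Over the list the median was -0.01, and 16 of 33 genes were above 0. Slc17a1, a phosphate and urate transporter, was 7.49, 7.39 and 7.28 against 8.01, 8.39 and 7.04, and was called higher only without tylosin replicate 3, at 0.81.

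No cytochrome P450 of xenobiotic metabolism was called (0 of 24), nor were the 3 receptors Nr1i2, Nr1i3 and Ahr that the list of 27 also holds. The log2 fold changes of the P450 enzymes were mostly negative, with 21 of 24 below 0 and a median of -0.19, and 15 of 24 below 0 without tylosin replicate 3. Cyp2c54 was 10.67, 11.59 and 11.74 in control mice and 10.27, 10.57 and 9.39 with tylosin, and its log2 fold change of -1.25 (SE 0.45) was not called. Among 33 conjugation enzymes, Nnmt, which methylates nicotinamide, rose from 10.49, 10.52 and 10.93 to 11.12, 11.53 and 11.28, and lost its call without tylosin replicate 3, at a log2 fold change of 0.68 against 0.67 with all arrays, as it did without control replicate 1 or 2 or tylosin replicate 2. Gsta2, a glutathione transferase, had a larger log2 fold change of 1.37 without a call. Hal, the first enzyme of histidine breakdown, was the 1 gene called among 26 of the urea cycle and amino acid breakdown, at 10.23, 10.73 and 10.32 against 11.01, 10.80 and 11.01, and kept its call in 2 of the 6 fits with an array left out.

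Genes of RNA splicing lay slightly above control mice in most cases. In a list of 39 none was called (0 of 39), while 32 were above 0, beside 66.1% of all genes. All tylosin arrays lay above all control arrays in 12 of the 39, beside 14.4% of all genes. The median was 0.25 with and without tylosin replicate 3, beside 0.07 and 0.10 over all genes. Without the noncoding RNAs Malat1 and Neat1, which the list holds, 30 of 37 were above 0 and the median was 0.21, or 0.25 without tylosin replicate 3. The list does not hold every splicing gene. Prpf39, a U1-associated factor, and Pnisr, an SR-related protein, lie outside it and rose, at log2 fold changes of 0.68 and 0.63 with a further probe set of each called. They were chosen after their values were seen. Prpf39 was 6.20, 5.75 and 5.89 in control mice and 6.91, 6.69 and 6.29 with tylosin, without overlap. Srsf11, a splicing factor of the SR family, was 9.12, 8.94 and 8.91 in control mice and 9.39, 9.43 and 9.44 with tylosin. Hnrnpu, a nuclear matrix protein that binds RNA, was 9.51, 9.63 and 9.32 against 10.07, 10.08 and 9.71, and was called without tylosin replicate 3 at 0.59. Of 38 oxidative phosphorylation genes 33 were above 0, but their median of 0.08 was that of all genes.

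Several called genes stood outside the lists. Mmd2, a membrane receptor of the adiponectin receptor family, was 5.48, 5.22 and 5.73 in control mice and 6.07, 6.66 and 7.57 with tylosin, a log2 difference of 1.29 (SE 0.34, limma adjusted p = 0.19). Its control values were under 6, its call was lost without control replicate 1 or 2, and with its 3 probe sets averaged it was 0.68 without a call. Pxylp1, a phosphatase of glycosaminoglycan assembly, was 5.22, 5.74 and 5.85 against 6.58, 6.56 and 6.52, the tightest tylosin group among the largest rises. Rprd2, which binds the tail of RNA polymerase II, was 6.21, 6.24 and 6.01 against 7.20, 7.31 and 6.64. Trp53bp1, a DNA double-strand break protein, was 5.79, 5.81 and 5.40 against 6.65, 6.37 and 6.32. Cttnbp2nl, a partner of cortactin, was 6.41, 6.08 and 6.10 against 6.99, 6.79 and 7.12. These 4 genes, with log2 fold changes of 0.95, 0.90, 0.78 and 0.77, held with any 1 array left out. All control values of Pxylp1 and Trp53bp1 were under 6, so both passed the limit on the mean only through arrays of treated mice. None of them kept the call when all of its probe sets, dim ones included, were averaged, which gave 0.44, 0.14, 0.13 and 0.46 in that order. The other Rprd2 probe set over 6 was at 0.13.
Vcam1, an adhesion molecule of endothelium and stromal cells, was 7.32, 6.45 and 7.23 against 7.99, 7.78 and 7.49, a log2 fold change of 0.76. Its call was lost without control replicate 2 (0.49 without a call) or tylosin replicate 1 or 2, after quantile normalization, and at 0.38 with its 3 probe sets averaged, 1 of which was at -0.05. E2f8, a repressor of the cell cycle that promotes hepatocyte polyploidy and the 1 gene called among 9 of the cell cycle, fell from 7.33, 7.35 and 6.74 to 6.62, 6.12 and 5.78, a log2 fold change of -0.97 that was -0.77 and not called without tylosin replicate 3, nor called without control replicate 1 or 2 or tylosin replicate 2, or at -0.50 with both of its probe sets averaged. Efna1, an ephrin ligand, fell from 7.72, 8.25 and 7.46 to 6.60, 7.04 and 7.14, and lost its call without control replicate 1 or 2 or tylosin replicate 1 or 2. Inpp5j, a phosphatase of inositol phospholipids, fell from 8.54, 8.57 and 8.59 to 7.76, 7.65 and 8.27. The uncharacterized 3110021A11Rik fell from 6.43, 6.40 and 6.42 to 5.78, 5.76 and 6.04. Inpp5j and 3110021A11Rik, at -0.68 and -0.56, had the closest control arrays among the falls, and both held with any 1 array left out, although 3110021A11Rik was -0.39 without a call when both of its probe sets were averaged. The smaller falls among the 15 largest with separated arrays were those of Tmc8, a channel-like membrane protein, Foxl2, a forkhead factor, and Hbb-b2, a beta globin, at -0.60, -0.52 and -0.51, whose calls were kept in 1, 3 and 4 of the 6 fits with an array left out.

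Calls that held in all 6 fits with 1 array left out numbered 30 of the 127 rises and 4 of the 23 falls. The rises, named here after their values were seen, include Ranbp2, a nucleoporin, Sos2, an exchange factor for RAS, Ube2v2 and Rev3l, both of DNA damage tolerance, Stx6, a SNARE of the trans-Golgi, Appl1, an adaptor of adiponectin and insulin signalling, Zap70, a kinase of T and NK cells, and Dhtkd1, of lysine breakdown. Their log2 fold changes were 0.76, 0.74, 0.74, 0.72, 0.73, 0.70, 0.70 and 0.59 in that order. Other probe sets over 6 did not bear out all of these, with Zap70 at -0.35 and 0.07 in its further pair and Stx6 at -0.05. The falls were Hspb1, Slc6a9, Inpp5j and 3110021A11Rik. Among the 127 rises 43 genes had another probe set over 6, and in 36 of them every such probe set had the same sign, with 10 called as well. Among the falls 3 had one, all in the same direction and 2 called. In RefSeq annotation the genes that rose spanned a median of 44.73 kb, those that fell 12.88 kb and all genes over 6 a median of 23.55 kb.

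Leaving out tylosin replicate 3 raised the number of calls to 312 rises (4.15%) and 88 falls (1.17%). Of the 127 rises 110 remained and 17 were lost, and of the 23 falls 18 remained and 5 were lost, while 202 rises and 70 falls were called only without that array. Still 0 genes had an adjusted p under 0.05 by limma, and the lowest was 0.057. Tylosin replicate 3 was the tylosin array nearest to control mice in 88 of the 127 rises and 16 of the 23 falls. The fit without tylosin replicate 3 left 2 tylosin arrays, and in these the 3′ minus 5′ difference of the beta-actin control probe sets, a log2 measure that grows with RNA degradation or short labelling, was 1.49 and 1.73, above the 1.29 to 1.40 of the control arrays and the 1.21 of the array left out. This measure thus separates the groups in that fit. The same difference for Gapdh does not, at 0.41 and 0.53 in these 2 arrays against 0.23 to 0.43 in the control arrays. The part of either measure in the gained calls was not tested.
Genes that lost their call include Ccn2, Noct, Mt2, Nnmt, Cd14, Msr1, Nfkbiz and Hal among the rises, and Slc22a7 and E2f8 among the falls. Mt2, a metallothionein of the acute phase list, was 10.23, 10.48 and 11.38 in control mice and 11.56, 11.41 and 11.79 with tylosin, and control replicate 3 lay just below tylosin replicate 2. Its call was kept in 1 of the 6 fits with an array left out. It was the 1 gene called among 28 acute phase genes, whose median was -0.02.
Genes that gained a call include several with tylosin replicate 3 at the level of control mice. Ppargc1a, a coactivator of gluconeogenesis and mitochondrial genes, was 7.88, 6.85 and 7.42 in control mice and 8.95, 8.27 and 7.63 with tylosin, and its log2 fold change was 0.90 with all arrays and 1.23 without it. Limd2, Gja1 (connexin 43) and Lgals1 (galectin 1) were at 1.11, 1.02 and 0.99 without it, and Gja1 was 7.97 and 8.30 in tylosin replicates 1 and 2 but 7.03 in replicate 3, against 6.98 to 7.35 in control mice. Stk17b, Slc12a2, Bmp2 and Marchf7 gained calls at 0.92 to 0.99. The endothelial receptors Kdr and Tek did so at 0.56 and 0.67. Among the falls, Id3, an inhibitor of differentiation factors, was 9.18, 10.07 and 9.16 in control mice and 8.17, 8.43 and 9.32 with tylosin. Ppargc1b, a relative of Ppargc1a, was 7.66, 6.81 and 7.08 against 6.34, 6.16 and 7.0, a log2 fold change of -0.93 without the array, opposite in direction to Ppargc1a.

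**Figure D4:**
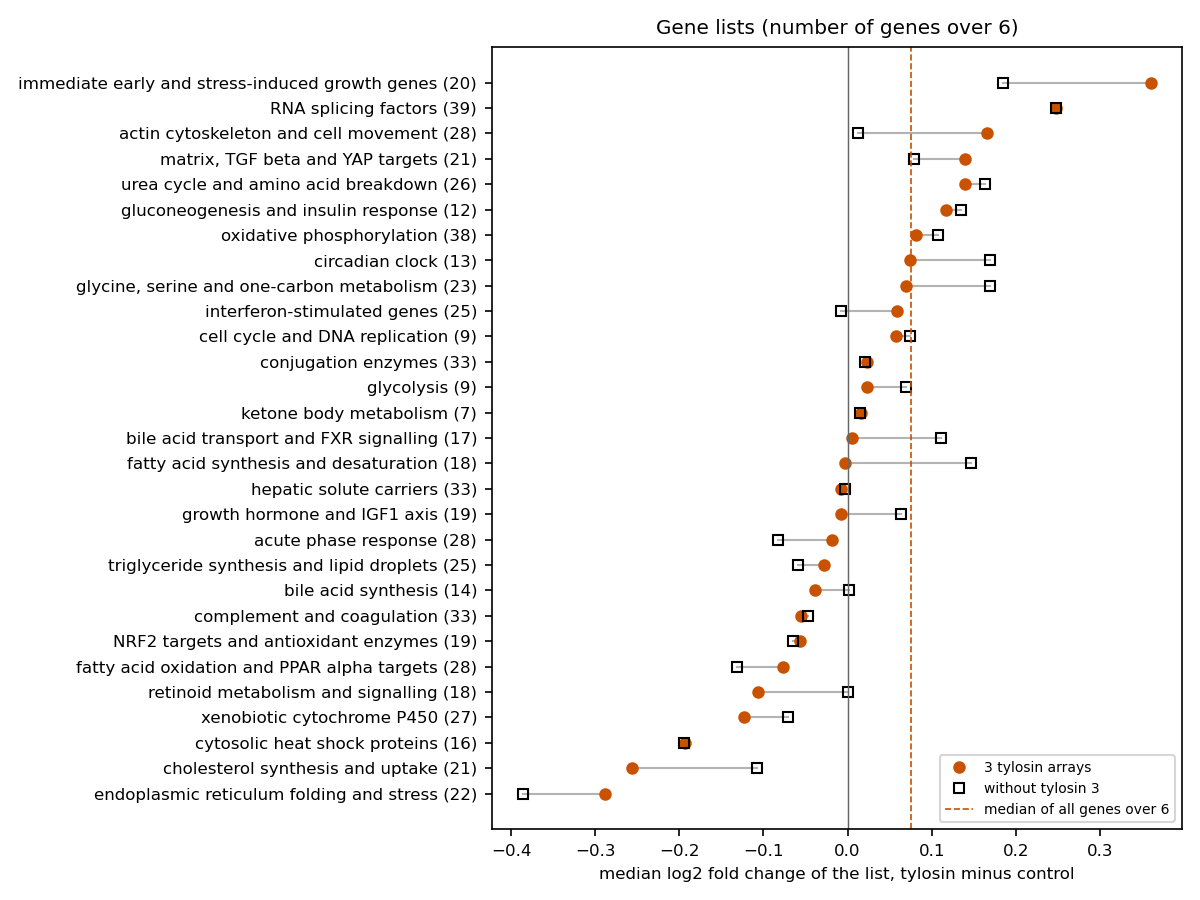
Median log2 fold change of tylosin against control (horizontal axis) over the genes of each of 29 pathway lists with a mean over 6, whose number stands in parentheses, with all tylosin arrays (orange points) and without tylosin 3 (open squares). The dashed line is the median of all genes, 0.07, and the list of actin cytoskeleton and cell movement moves from 0.17 to 0.01 while that of splicing factors stays at 0.25.

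Some of the falls called only without tylosin replicate 3 lay in arrays that also differed in the beta-actin measure, though not all in that of Gapdh. Rpl27a, a ribosomal protein, was 8.88, 8.82 and 9.0 in control mice and 6.45, 6.32 and 8.71 with tylosin, and 6.76, 8.61 and 6.80 with amoxicillin. Rpf2, a ribosome assembly factor, was 7.71, 7.67 and 7.91 in control mice and 6.15, 6.02 and 7.80 with tylosin, with 6.32, 7.48 and 6.41 after amoxicillin. AY036118 was low in the same 4 arrays, and so was Spout1, though amoxicillin replicate 2 was also somewhat low in it. The beta-actin difference was 1.49 and 1.73 in tylosin replicates 1 and 2 and 1.57 in amoxicillin replicates 1 and 3, against 1.21 to 1.40 in the other 5 arrays. The same difference of the Gapdh control probe sets did not set these 4 arrays apart. It was 0.53 in tylosin replicate 2 and 0.54 in amoxicillin replicate 1. In tylosin replicate 1 and amoxicillin replicate 3 it was 0.41 and 0.39, inside the 0.23 to 0.43 of the control arrays. The part of either measure in these 4 falls was not tested.

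**Figure D5:**
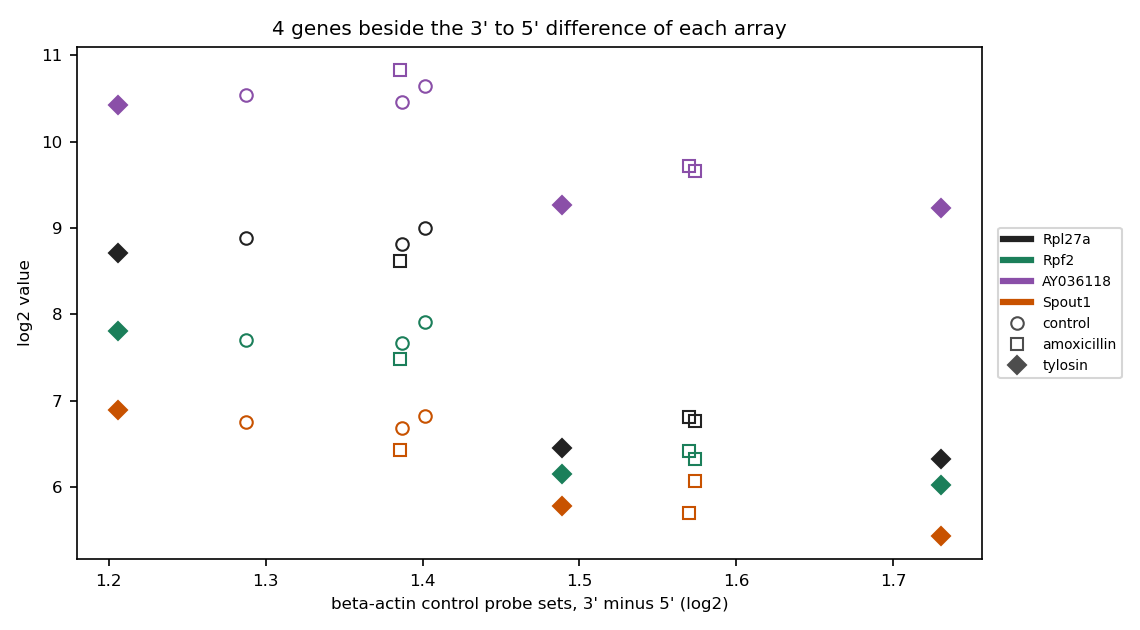
Log2 value (vertical axis) of Rpl27a, Rpf2, AY036118 and Spout1 in each of the 9 arrays against the 3′ minus 5′ difference of the beta-actin control probe sets on the same array (horizontal axis, log2), with colours for genes and symbols for groups. The 4 arrays with a difference of 1.49 or more, tylosin 1 and 2 and amoxicillin 1 and 3, hold the lowest values of each gene.

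Among immune genes, Cd14, a receptor for lipopolysaccharide, was 6.23, 6.73 and 6.66 in control mice and 7.43, 6.81 and 7.35 with tylosin. Msr1, a macrophage scavenger receptor, was 6.75, 6.81 and 6.37 against 7.39, 6.98 and 7.38. They were the 2 called among 6 markers of recruited macrophages over 6, at log2 fold changes of 0.66 and 0.61, and both lost the call without tylosin replicate 3, at 0.58 and 0.54, or without tylosin replicate 1 or control replicate 3, and Cd14 without control replicate 1 too. With its 4 probe sets averaged Msr1 was at 0.12 without a call. The summed level of 14 such markers was 10.55 to 10.996 in control mice and 11.03, 10.88 and 11.46 with tylosin. Whether macrophage number had a part in these values was not tested. Jchain, the joining chain of secreted IgA and IgM, was 4.17, 5.0 and 4.21 in control mice and 5.56, 8.36 and 6.90 with tylosin, but also 10.25 in amoxicillin replicate 1, and its log2 fold change of 2.48 (SE 1.24) was not called. The summed level of 8 B and plasma cell markers was 8.28 to 9.04 in control mice, and 8.35, 9.52 and 10.76 with tylosin. No gene was called among 33 of complement and coagulation and 25 stimulated by interferon (0 of each), with medians of -0.06 and 0.06.

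Amoxicillin was compared with the same 3 control arrays, so its values stand beside those of tylosin without independent support. Of the 127 rises with tylosin 46 were also called with amoxicillin, and of the 23 falls 7 were. The amoxicillin log2 fold change had the same sign in 126 of these rises (median 0.47) and 22 of these falls (median -0.41). The shared control arrays favour such counts. Over all 45037 probe sets, without a limit on the mean, 447 were called higher and 161 lower with amoxicillin. The shares of genes over 6 that were called or above 0 with amoxicillin are not given here. The overlap and same-sign counts, and the list medians that follow, thus have no baseline and do not show a shared response. List medians with amoxicillin were -0.33 for endoplasmic reticulum folding, -0.38 for heat shock and 0.25 for splicing, near or beyond those with tylosin. Those of the growth and stress list and the cholesterol list had the opposite sign to tylosin, at -0.05 and 0.39. Hspb1 was 8.60, 8.91 and 8.18 with amoxicillin, or -1.13 against control as a log2 fold change, and Pxylp1 was 6.50, 6.59 and 6.37, a log2 fold change of 0.88. Cyp7a1 was 10.15, 10.67 and 10.42, between both other groups, at 0.48 against control without a call and 0.62 lower than with tylosin. The direct contrast of tylosin with amoxicillin called 3 of these genes. Dusp1, at 9.20, 8.51 and 8.75 with amoxicillin, and Cd14, at 6.71, 6.71 and 6.19, were higher with tylosin, each by 0.66. Slc22a7, at 8.93, 8.79 and 8.23 with amoxicillin, was lower with tylosin, at a log2 fold change of -0.93 against amoxicillin (SE 0.20, adjusted p = 1 from limma). For the others the contrast between both antibiotics was not called, which does not show that they acted alike.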

How the data were processed

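Liver RNA of 9 mice was labelled and hybridized to Affymetrix mouse genome arrays, 1 for each mouse. The authors normalized the arrays with robust multi-array averaging (RMA, affy package, versions not given in the sources used here) and deposited log2 values, which ran from 2.00 to 14.71. Because RMA sets the distributions of arrays close to each other, global shifts are not measured, and dim genes are compressed. Of 45101 probe sets, 64 manufacturer's controls were left out. By the platform annotation of GEO, 34945 of the remaining 45037 carry 1 gene symbol, 932 several and 9160 none, and only the first were named.

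All 45037 probe sets were fitted over the 9 arrays with limma 3.58.1 in R 4.3.3, with tylosin against control as the contrast and p-values adjusted over all of them by Benjamini-Hochberg. Calls used the thresholds of the methods, a P under 0.01 before adjustment together with a log2 fold change beyond 0.5 in size. The procedure was tested on simulated data. Alternatives were an adjusted p, a log2 fold change over 1, other limits on the mean, a fit of control and tylosin arrays alone, a trended and robust variance, equal medians, quantile normalization, array weights, the replicate number as a block, the mean of all probe sets of a gene, and each array left out in turn.

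Genes named are the 15 largest rises and falls among called genes with separated arrays, called members and up to 4 uncalled members of 44 gene lists, the 8 largest rises and falls called only without tylosin replicate 3, Hspb1, and markers of single arrays. The lists hold 966 genes, 881 of them on the array and 687 over 6. Genes, lists and thresholds were chosen with earlier results of these data known. Promoter windows and gene spans came from RefSeq on GRCm38.p6. Figures were drawn with matplotlib 3.10.9 in Python 3.11.15. The number of arrays, 3 in each group, limits the precision. Raw scanner files were not used here.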

Additional observations from a re-analysis of the deposited data

How the results depend on the processing

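The counts of 127 rises and 23 falls with tylosin depended on thresholds, scaling and single arrays. An adjusted p under 0.05 left 0 and 0, and a log2 fold change over 1 left 5 and 1. A mean over 8 left 33 and 7, a mean over 5 gave 35 falls, and no limit on the mean gave 80 falls. With equal medians there were 206 and 13, with quantile normalization 51 and 58, with array weights 37 falls, and with the probe sets of each gene averaged 41 and 13. With 1 array left out, rises ran from 73 (without tylosin replicate 1) to 312 (without tylosin replicate 3) and falls from 12 (without tylosin replicate 2) to 88 (without tylosin replicate 3). Same-numbered control and tylosin arrays had residual correlations of 0.13, 0.0025 and 0.15, so the numbers were not taken to pair mice, and the replicate block gave 134 rises and 23 falls, of which 121 and 20 were shared with the fit without it. Of the 40 called genes taken by the rule for named genes, the call held for 35 with quantile normalization, for 21 with probe sets averaged (19 of the 23 with several probe sets lost it), for 22 to 25 without any 1 control array or tylosin replicate 1 or 2, and for 31 without tylosin replicate 3. Genes named for a call without tylosin replicate 3 are not counted there, since that choice fixed their result. The genes that changed sign were 4 that were uncalled with all arrays. Tent5c came to 0.0014 with the mean of its probe sets. With single arrays left out, Ccnd1 ran from -0.68 to 0.24, Gstt3 from -0.14 to 0.62 and Socs3 from -0.54 to 0.0226, each with its far end in the fit without tylosin replicate 3. Why these values moved was not tested. Genes with values near 6 lie closer to the background of the array, where log2 differences are compressed.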
